A study of Mus musculus with 16 samples.

Results

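The comparison set mouse CD8+ T cells sorted as PD-1+ TIM-3- after 5 days of culture, called Teff2, against cells sorted through the same gate after 2 days, called Teff1. All RNA-seq libraries of these groups were used, 3 of Teff2 and 3 of Teff1, which are 6 of the 12 RNA-seq libraries and 6 of the 16 samples of the series. The starting population of both groups was naive CD8+ T cells from C57BL/6 spleens. They were activated in the dish with antibodies to CD3e and CD28, each at 10 µg/ml, and IL-2 was supplied at 300 U/ml from the following day. The age and sex of the mice are not given in the sources used here. The cells therefore shared the gate, the stimulus and the cytokine, and differed by culture time. The other RNA-seq libraries are the naive cells before culture (Tn, sorted as naive CD8+ CD44- cells, day 0) and TIM-3+ cells of the later time point (Tex, PD-1+ TIM-3+, day 5), again 3 of each. RNA came from 0.2 M cells per library. The p-values below come from a fit of all 12 RNA-seq libraries, so the spread within Tn and Tex also enters them. No label ties a replicate to its own animal or culture. The p-values thus reflect only how far the libraries of a group differ among themselves, and that spread may be technical in origin.

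A CD8+ T cell that meets its antigen with co-stimulation leaves quiescence, divides, and builds up the granules, cytokines and surface receptors with which it kills. PD-1 appears on T cells soon after activation and restrains signalling from the antigen receptor, while TIM-3 is an additional inhibitory receptor found on cells under prolonged stimulation. Cells that carry the first without the second are often treated as effector cells, and the genes they express depend on how long ago the stimulus began.

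The 6 libraries held between 16.3 and 21.2 M counts, so that a count of 0 allowed a level of at most 0.142 to 0.184 CPM, the level of 3 counts (CPM is a count scaled to a common library total). Levels of genes are CPM scaled with TMM factors. Cd8a stood at 773, 746 and 791 CPM in Teff1 replicates 1 to 3 and at 715, 870 and 859 CPM in Teff2. Pdcd1, which encodes PD-1, stood at 106, 72.2 and 93.6 CPM in Teff1 and at 103, 179 and 220 CPM in Teff2. Havcr2, which encodes TIM-3, lay between 0.182 and 0.612 CPM in the 6 libraries and between 10.9 and 38.4 CPM in Tex. Cd8a and Pdcd1 were thus present in all 6 libraries, and Havcr2 was near the floor in each. On a principal component analysis of the 6 libraries the first component held 38.8% of the variance and placed replicate 1 of both groups (-82.3 in Teff2 and -32.2 in Teff1) below the others (-6.85 to 53.1), while the second held 29.8% and separated the days (26.5 to 54.7 in Teff1, -56.7 to -6.18 in Teff2). Libraries of a group correlated across genes with r between 0.959 and 0.979 in Teff1 and between 0.943 and 0.975 in Teff2. None of the 12 lists of cell type markers held a called gene. In the test described below only 0.558% of all genes were called higher and 0.112% lower. The lack of a call therefore does not set these markers apart from other genes. Markers of B cells summed to 199, 225 and 290 CPM in Teff1 and to 129, 155 and 267 CPM in Teff2, with no B cell marker at 0 in all 6 libraries. Those of MHC class II had 47.4, 29.0 and 45.5 CPM in Teff1 and 127, 48.7 and 41.1 CPM in Teff2, with Teff2 replicate 1 above the rest through Cd74 (102 CPM). The dendritic cell markers, with Clec9a at 0 throughout, had 1.89 to 10.8 CPM in Teff1 and 2.82 to 23.2 CPM in Teff2, and the NK cell markers, with Klra8 at 0 throughout, 12.3 to 39.9 and 19.3 to 35.4 CPM. The neutrophil sum, with S100a8 and Elane at 0, did not exceed 0.123 CPM in any of the 6. Over the 6 libraries, macrophage and monocyte markers summed to 4.39 to 12.0 CPM, gamma delta T cell markers to 1.04 to 4.34, erythroid markers to 0.307 to 7.45, platelet markers (Pf4, Ppbp and Gp1bb at 0) to 1.29 to 6.58 and stromal and endothelial markers (Cdh5 at 0) to 40.9 to 85.8. The sums for CD4 and regulatory T cells, 1048 to 1641 CPM, were mostly Il2ra and Ctla4, which activated CD8+ cells also express. The part of such cells in the changes below was not tested. In bulk RNA, fewer cells with a transcript and less of it per cell cannot be told apart.

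Of 14332 genes tested, 80 were higher at day 5 (0.558%) and 16 were lower (0.112%), with edgeR's quasi-likelihood test and a Benjamini-Hochberg adjusted p under 0.05. The fit took its spread from all 12 RNA-seq libraries. A change of at least 1 on the log2 scale was seen in 76 of the former and 11 of the latter. In each of the 96, the 3 libraries of Teff2 lay outside the range of the 3 libraries of Teff1. Over all genes tested, 1203 (8.39%) had every Teff2 library above every Teff1 library and 887 (6.19%) had every Teff2 library below. At an unadjusted p under 0.05 there were 1086 higher and 621 lower genes. The counts changed when a single library was left out. Without Teff1 replicate 3 there were 17 higher and 6 lower calls, and without Teff1 replicate 2 they were 24 and 2. They were 36 and 5 without Teff1 replicate 1, and 22 and 3 without Teff2 replicate 3. Without Teff2 replicate 2 they were 82 and 8, and without Teff2 replicate 1 they were 88 and 18. Each of these fits also had fewer libraries in the group concerned. When replicate 1 of Teff1, Teff2 and Tex was left out together, 106 genes were higher and 35 lower, and these held 52 of the 80 and 10 of the 16. A fit on the 6 libraries alone called 36 and 3, of which 29 and 3 were shared.

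**Figure D1:**
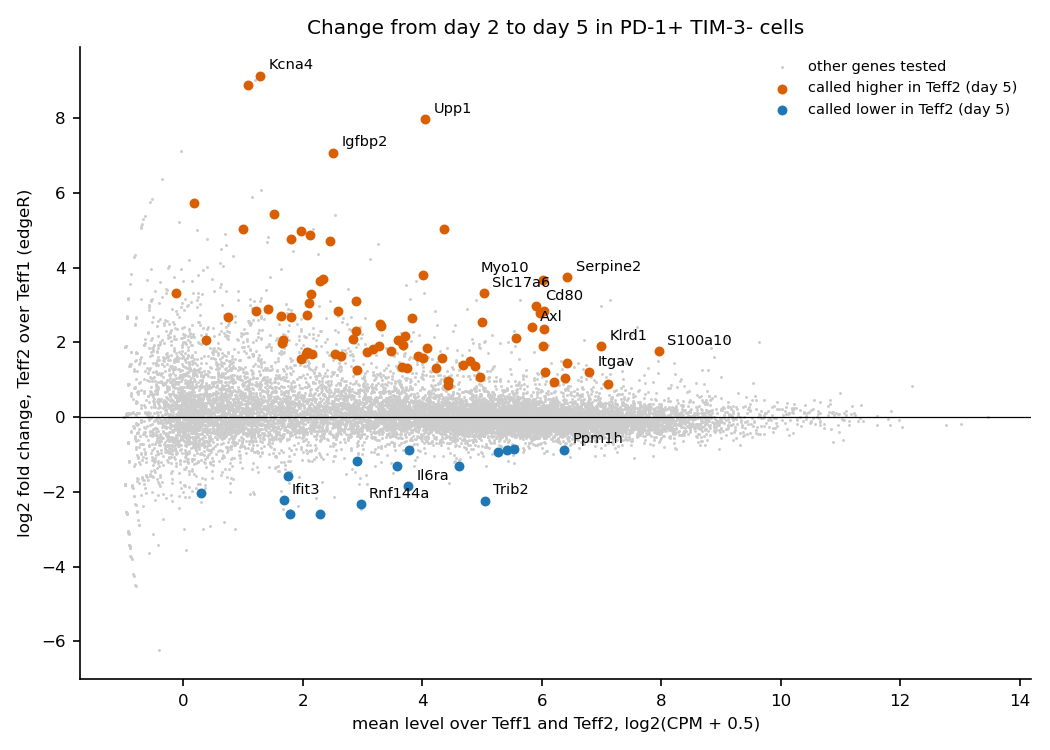
Each point is 1 of the 14332 genes tested, by its mean level over Teff1 and Teff2 on the log2(CPM + 0.5) scale and its log2 fold change of Teff2 over Teff1. Of the 96 called genes, the 80 higher at day 5 (orange) reached larger changes than the 16 lower (blue), and the median of all genes was 0.

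Among the rises, 15 genes were called in each of the 6 fits that left out a library, and among the falls 2 were (Il6ra and Trib2). The smallest adjusted p was that of Myo10 (chromosome 15, 25622550 to 25813673), an unconventional myosin that carries cargo to the tips of filopodia. Its level was 10.2, 8.13 and 9.88 CPM in Teff1 and 128, 106 and 126 CPM in Teff2. The groups were far apart and each was tight (9.41 ± 1.13 against 120 ± 12.3 CPM, SD, n = 3 each), a log2 fold change of 3.67 with a standard error of 0.25 and an edgeR adjusted p of 7.14e-05. Axl (chromosome 7, 25756500 to 25788924) encodes a receptor tyrosine kinase of the TAM family, which binds Gas6 and takes part in the uptake of apoptotic cells. It was chosen after its values were seen, for the next smallest p. It stood at 18.8, 15.6 and 19.2 CPM in Teff1 and at 96.1, 82.4 and 107 CPM in Teff2, which did not overlap, and rose 5.32-fold (log2 2.41, SE 0.18, edgeR adjusted p = 8.35e-05).

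The largest rise among genes of at least 10 CPM was that of Upp1 (chromosome 11, 9118008 to 9136170), uridine phosphorylase, which splits uridine into uracil and ribose phosphate. Its level was 0.0476, 0.0951 and 0.243 CPM in Teff1, where the 3 libraries together held 7 counts, and 48.0, 26.2 and 21.8 CPM in Teff2 (log2 fold change 7.97, SE 0.66, edgeR adjusted p = 0.000629). Upp1 thus went from the floor of detection to a clear signal in all 3 day 5 libraries. Igfbp2, a secreted protein that binds insulin-like growth factors, had 0, 0.0475 and 0.182 CPM in Teff1 and 6.38, 8.77 and 15.8 CPM in Teff2 (log2 7.08). Its 3 Teff1 libraries together held 4 counts, so the size of this change is loosely set, at 6.48 without Teff1 replicate 1 and 8.39 without Teff1 replicate 3. That of Upp1 was 8.67 without Teff1 replicate 3. Rgs8, a regulator that speeds the switching-off of G proteins, had 2.24, 2.23 and 1.76 CPM in Teff1 and 37.8, 19.9 and 29.9 CPM in Teff2, a 14-fold rise. All 3 of these genes were called in every fit that left out a library.

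The other large rises were less even among libraries. Serpine2, a secreted inhibitor of thrombin and other serine proteases, stood at 16.7, 9.98 and 8.67 CPM in Teff1 and at 274, 78.6 and 125 CPM in Teff2, with replicate 1 highest in both groups. Slc17a6, which in neurons loads glutamate into vesicles, stood at 6.42, 5.56 and 5.58 CPM in Teff1 and at 19.1, 81.4 and 74.8 CPM in Teff2, with replicate 1 lowest at day 5. Ttc39c had 2.33, 0.855 and 0.303 CPM in Teff1 and 19.1, 28.8 and 69.4 CPM in Teff2. Ntrk3, a receptor kinase for neurotrophin-3, had 2.57, 1.14 and 0.546 CPM in Teff1 and 18.9, 6.58 and 11.8 CPM in Teff2. The log2 fold changes of these genes were 3.75, 3.32, 5.03 and 3.11. That of Serpine2 was 3.11 without Teff2 replicate 1, that of Ntrk3 was 3.84 without Teff1 replicate 1, and that of Ttc39c was 6.01 without Teff1 replicate 1 and 4.32 without Teff2 replicate 3. Each lost its call in 4 of the 6 fits that left out a library, among them those without Teff1 replicate 2, Teff1 replicate 3 or Teff2 replicate 3. Their largest adjusted p-values over the 6 such fits were 0.143, 0.135, 0.161 and 0.170, all without Teff1 replicate 2. Kcna4, a voltage-gated potassium channel, and Pkd2, the cation channel polycystin-2, had no count in any Teff1 library and were chosen for that after their values were seen. Kcna4 had 5.51, 2.26 and 3.87 CPM in Teff2 and Pkd2 4.29, 1.55 and 3.87 CPM. Against a floor of 3 counts per Teff1 library these were at least 25.5-fold and 21.4-fold higher.

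**Figure D2:**
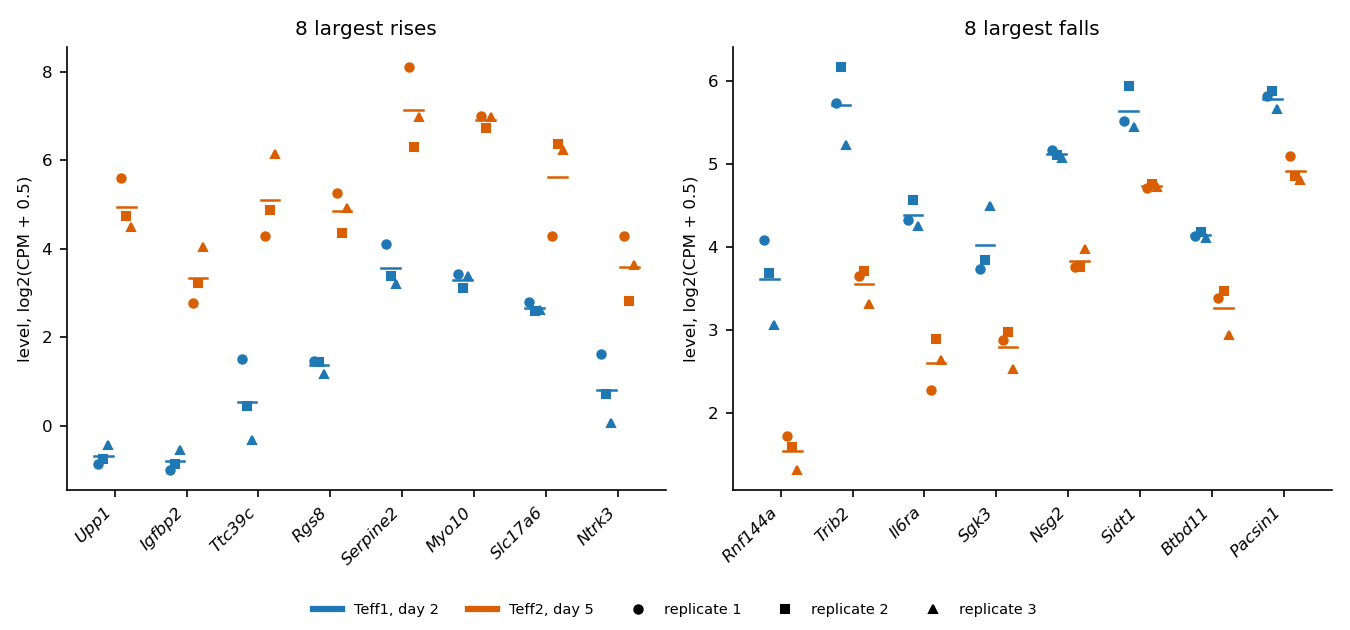
Levels on the log2(CPM + 0.5) scale in each library (symbols mark the replicate, bars the mean of 3) for the 8 largest rises and the 8 largest falls among called genes of at least 10 CPM in the higher group. Teff1 and Teff2 do not overlap in any of the 16, and the spread within Teff2 is widest for Slc17a6, Serpine2 and Ttc39c.

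Further called genes, chosen after their values were seen, are given by what they encode. At the cell surface, Cd80, a ligand of CD28 and CTLA-4 best known from antigen-presenting cells, stood at 8.42, 25.1 and 6.91 CPM in Teff1 and at 44.2, 120 and 152 CPM in Teff2, a 7.80-fold rise that lost its call in 4 of the 6 fits that left out a library. Cd80 is known from the cells that the MHC class II markers stand for, whose sum is given above, and the part of such cells in its level was not tested. Of these markers H2-Ab1 was above in every day 5 library, at 11.5, 31.5 and 12.3 CPM against 4.44, 5.25 and 8.2 CPM, and was not called. Cd74, H2-Aa, H2-Eb1 and Ciita overlapped between the days. Cd74 had 37.3, 23.1 and 31.1 CPM in Teff1 and 102, 16.2 and 24.1 CPM in Teff2. Of the Teff2 libraries, replicate 1 was highest for Cd74 and lowest for Cd80. Without Teff1 replicate 2 the log2 fold change of Cd80 was 3.78, against 2.96 with all libraries. Lama5, a chain of the basement membrane protein laminin, had 6.80, 15.8 and 4.97 CPM in Teff1 and 42.6, 60 and 58.5 CPM in Teff2. Its groups were apart, and it rose 5.82-fold. The call was lost without Teff1 replicate 1, Teff1 replicate 3 or Teff2 replicate 3, and the log2 fold change was 2.54 with all libraries and 3.18 without Teff1 replicate 2.

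Of cytoskeletal genes, Srgap3, a GTPase-activating protein for Rac, stood at 15.5, 30.3 and 18 CPM in Teff1 and at 102, 114 and 110 CPM in Teff2, and rose 5.11-fold. Basp1, a membrane-bound protein first described in nerve endings, stood at 19.7, 12.4 and 16.0 CPM in Teff1 and at 68.7, 129 and 145 CPM in Teff2, and rose 7.10-fold. Neb encodes nebulin, a giant protein of muscle thin filaments, and had 26.6, 11.6 and 8.97 CPM in Teff1 and 133, 70.3 and 121 CPM in Teff2. Gsn, which severs actin filaments, rose 2.47-fold, and Myo1f, a myosin of leukocytes, rose 2.54-fold. Gsn and Myo1f had adjusted p of 0.047 and 0.0378 and lost their calls in each of the 6 fits that left out a library, while Srgap3 was called in 5 of them, Basp1 in 4 and Neb in 2 (adjusted p up to 0.17 for Neb). The log2 fold change of Neb was 2.78 with all libraries and 3.38 without Teff1 replicate 1.

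Among enzymes and cell death genes, Plod2, a lysyl hydroxylase of collagen, had 12.4, 14.3 and 16.3 CPM in Teff1 and 34.8, 48.2 and 38.3 CPM in Teff2, a 2.82-fold rise that was called in every fit that left out a library. Padi2, which turns arginine residues into citrulline, stood at 49.7, 50.9 and 37.0 CPM in Teff1 and at 157, 123 and 95.7 CPM in Teff2. Mlkl, the executioner of necroptosis, stood at 15.8, 13.8 and 12.1 CPM in Teff1 and at 28.5, 42.4 and 38.3 CPM in Teff2. Bcl2l2, an anti-apoptotic relative of Bcl2, stood at 17.9, 15.1 and 15.5 CPM in Teff1 and at 50.7, 30.8 and 43.2 CPM in Teff2. All 4 rose and were apart between the days, and the calls of Mlkl and Bcl2l2 held in 1 of the 6 fits that left out a library. Serpinb6a, an intracellular protease inhibitor, rose 4.30-fold and was called in 3 of the 6 fits that left out a library, though its counts are uncertain because near copies such as Serpinb6b lie beside it. Irf5, an interferon regulatory factor, rose 6.33-fold (4.28, 3.52 and 3.40 CPM against 30.4, 15.9 and 24.7 CPM), with an adjusted p of 0.048, and of 0.144 when replicate 1 of the 3 activated groups was left out together. Irf5 was called in 1 of the 6 fits that left out a library (adjusted p up to 0.188), and not with RLE scaling, the 5 CPM filter, limma or without Tex.

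The falls were smaller and fewer. Il6ra (chromosome 3, 89869324 to 89913196) encodes the binding chain of the IL-6 receptor. It stood at 19.5, 23.2 and 18.6 CPM in Teff1 and at 4.34, 6.90 and 5.75 CPM in Teff2, without overlap. It fell by 1.85 on the log2 scale (SE 0.19, edgeR adjusted p = 0.000875). Trib2, a pseudokinase that guides proteins to degradation, stood at 52.6, 71.3 and 36.9 CPM in Teff1 and at 12.1, 12.6 and 9.41 CPM in Teff2, and fell by 2.24 on that scale (SE 0.28, adjusted p = 0.00422). The day 5 libraries of both genes were close to each other. Rnf144a, a ubiquitin ligase, had 16.4, 12.4 and 7.88 CPM in Teff1 and 2.81, 2.52 and 1.99 CPM in Teff2, which gave the largest fall of the 8, by 2.32.

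The other large falls were Nsg2, a neuronal vesicle protein, which fell by 1.31, Sgk3, a kinase related to Akt, by 1.32, Sidt1, a membrane protein linked to RNA transport, by 0.94, Btbd11 by 0.89 and Pacsin1, an adaptor of endocytosis, by 0.88. Nsg2 had 35.5, 33.9 and 33.2 CPM in Teff1 and 13.1, 13.1 and 15.2 CPM in Teff2, with little spread within either day. Nsg2 and Pacsin1 were called in 1 of the 6 fits that left out a library (adjusted p up to 0.0978 and 0.147), and Sidt1 in 4. Sgk3 and Btbd11 lost their calls in each of the 6 fits that left out a library, with adjusted p up to 0.186 for both, without Teff2 replicate 3. Of the falls below 10 CPM or of smaller size, chosen after their values were seen, Axin2, an inhibitor and well-known target of Wnt signalling, had 11.9, 8.79 and 8.55 CPM in Teff1 and 5.10, 3.42 and 4.35 CPM in Teff2. Ppm1h, a protein phosphatase, had 113, 116 and 91.0 CPM in Teff1 and 59.0, 62.6 and 53.9 CPM in Teff2. Pag1, an adaptor that holds the kinase Csk at the membrane and so dampens receptor signalling, had 62.2, 64.0 and 50.5 CPM in Teff1 and 34.9, 33.0 and 29.1 CPM in Teff2. These 3 fell by 1.18, 0.87 and 0.87, and their calls did not hold in all fits that left out a library (largest adjusted p 0.116, 0.186 and 0.126, each without Teff2 replicate 3).

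The levels in the naive cells and in the TIM-3+ cells were set beside these changes for the same genes. A comparison of Teff2 with another group shares libraries with the comparison above, so only levels are given. Il6ra had 208, 254 and 190 CPM in Tn, so its level was highest at day 0, lower at day 2 and lowest at day 5, and it had 4.10 to 4.53 CPM in Tex. Trib2 had 175, 194 and 153 CPM in Tn and 6.59 to 13.2 CPM in Tex, and Axin2 53.5 to 56.1 CPM in Tn and 3.43 to 3.68 CPM in Tex. Their order over the days was the same, and the levels of Teff2 and Tex overlapped for all 3 genes. Myo10 and Axl showed another course, with 4.70 to 8.55 and 15.8 to 21.3 CPM in Tn, near their day 2 levels, and with 125 to 200 and 91.6 to 114 CPM in Tex. Klrd1, described below, had 144 to 183 CPM in Tn, above all Teff1 libraries, and 162 to 234 CPM in Tex. Myo1f had 62.7 to 104 CPM in Tn, 6.12 to 7.90 CPM in Teff1, 16.6 to 18.5 CPM in Teff2 and 23.1 to 41.2 CPM in Tex, so its day 5 level was above day 2 and below day 0.

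**Figure D3:**
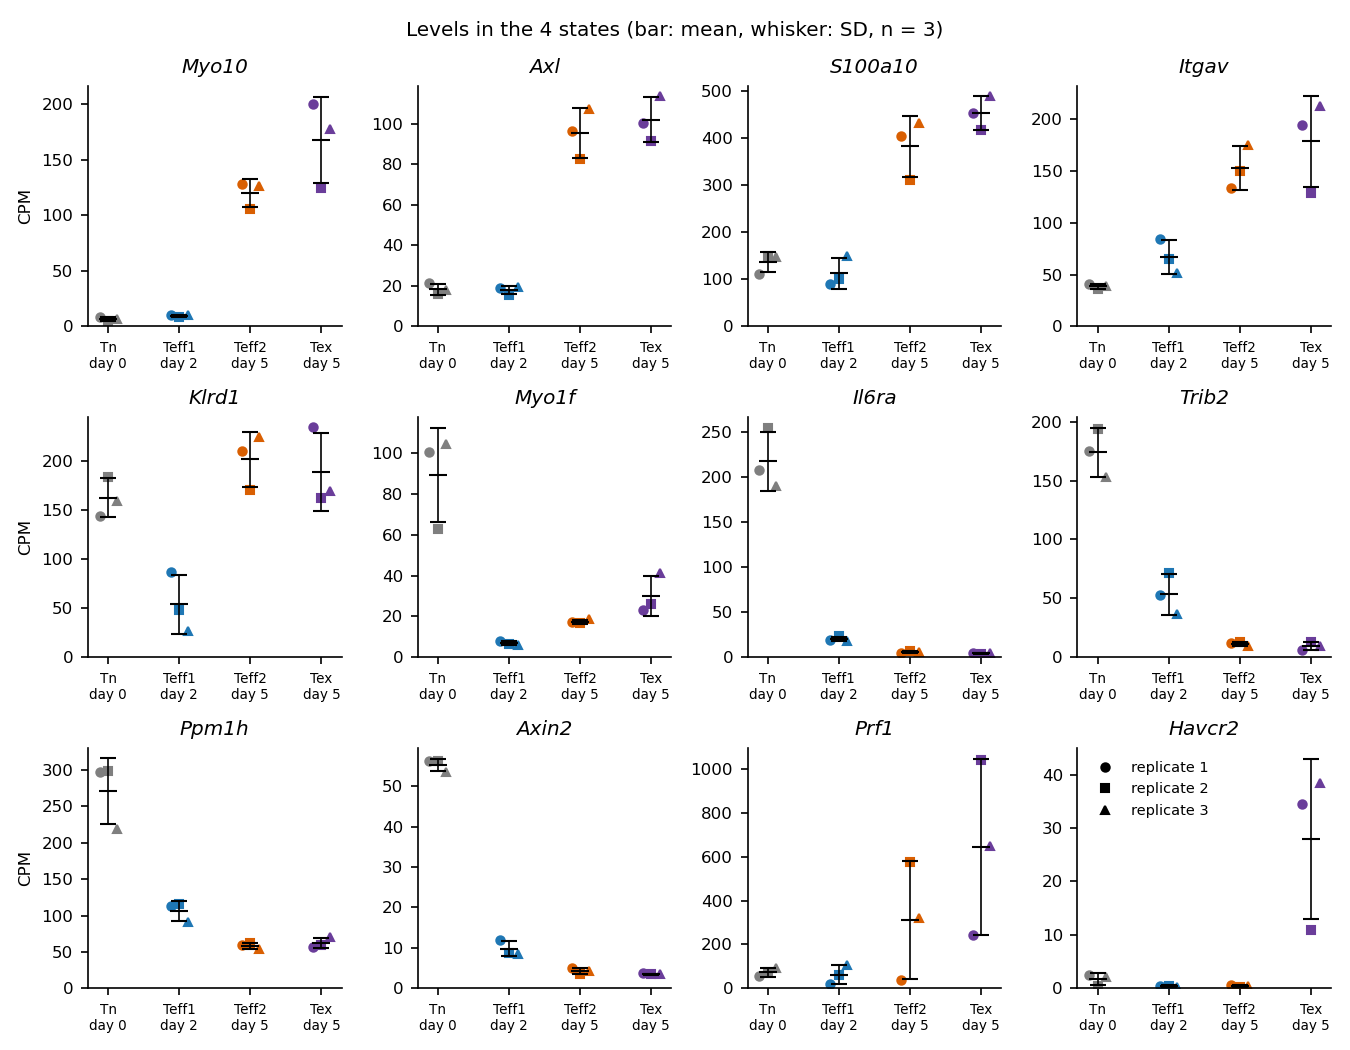
Levels in CPM in all 12 RNA-seq libraries for 12 genes in Tn, Teff1, Teff2 and Tex (symbols mark the replicate, bars and whiskers the mean and SD, n = 3). Myo10 and Axl are low at days 0 and 2 and high in both day 5 groups, Il6ra, Trib2, Ppm1h and Axin2 are highest at day 0, and Havcr2 lies above all other libraries in Tex.

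The sequences before the starts of 5 genes are shown. They are the genes named by size of change or as called list members that were called in every fit that left out a library and whose window lay wholly before the annotated gene. Each is the 250 bases before the RefSeq start on the gene's strand in GRCm38.p6, at chr11:9117758-9118007 (plus strand) for Upp1, chr1:72824230-72824479 (plus) for Igfbp2, chr15:25622300-25622549 (plus) for Myo10, chr3:93520246-93520495 (plus) for S100a11 and chr3:89913197-89913446 (minus) for Il6ra. Where the table held several starts the first was used. Capitals mark matches, on either strand, to short letter strings of 7 factor families.
Upp1: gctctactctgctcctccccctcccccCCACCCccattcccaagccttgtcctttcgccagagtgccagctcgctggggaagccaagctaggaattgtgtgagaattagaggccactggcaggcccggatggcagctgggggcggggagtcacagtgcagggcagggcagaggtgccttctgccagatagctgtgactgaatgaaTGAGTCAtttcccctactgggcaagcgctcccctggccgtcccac
Igfbp2: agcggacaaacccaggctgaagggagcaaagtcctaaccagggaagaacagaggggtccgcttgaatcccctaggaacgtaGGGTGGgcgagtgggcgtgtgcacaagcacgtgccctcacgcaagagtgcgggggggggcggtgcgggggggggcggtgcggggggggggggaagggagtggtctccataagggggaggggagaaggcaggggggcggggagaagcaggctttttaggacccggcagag
Myo10: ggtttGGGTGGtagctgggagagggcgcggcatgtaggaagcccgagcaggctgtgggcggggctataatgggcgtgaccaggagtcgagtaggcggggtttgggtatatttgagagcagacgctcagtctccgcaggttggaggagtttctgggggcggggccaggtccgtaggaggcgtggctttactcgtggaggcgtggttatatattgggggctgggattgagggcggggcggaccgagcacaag
S100a11: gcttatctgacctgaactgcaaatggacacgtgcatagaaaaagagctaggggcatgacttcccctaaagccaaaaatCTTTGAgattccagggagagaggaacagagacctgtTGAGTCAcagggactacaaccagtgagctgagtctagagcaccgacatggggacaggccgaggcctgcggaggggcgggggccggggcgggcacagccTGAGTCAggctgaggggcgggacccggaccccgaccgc
Il6ra: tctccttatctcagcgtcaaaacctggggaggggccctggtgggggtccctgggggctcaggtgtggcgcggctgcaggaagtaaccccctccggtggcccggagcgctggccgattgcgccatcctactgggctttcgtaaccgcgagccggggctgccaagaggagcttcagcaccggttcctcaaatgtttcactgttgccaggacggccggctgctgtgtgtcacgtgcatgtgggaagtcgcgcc
The strings were CTTTGA for TCF and LEF factors, CCACCC for Kruppel-like factors, TGANTCA for AP-1, CCGGAA for ETS factors, TGTGGT for RUNX factors, GAAA, any 2 bases and GAAA again for the interferon response element and TTCNNNGAA for STAT factors. The Upp1 sequence held 1 Kruppel-like and 1 AP-1 match, Igfbp2 and Myo10 held 1 Kruppel-like match each, S100a11 held 2 AP-1 matches and 1 of the TCF and LEF string, and Il6ra held none of the 7 in this window. Sequences were found for 10129 of the genes tested, among them 64 of the 80 higher and 14 of the 16 lower genes. The window lay wholly before the annotated gene in 34 of the 64, 3 of the 14 and 5340 of the 10129. In the others it did not, or could not be placed against the annotation, and the reason was not checked. The Kruppel-like string was in 32 of the 64 (50%) and 6 of the 14 (42.9%), against 32.7% of the 10129. The ETS string was in 5 of the 64 (7.81%) and 0 of the 14, against 22.8%. The interferon response element was in 1 of the 64 and 2 of the 14, against 2.78%, and the TCF and LEF string in 3 and 2, against 10.8%. The AP-1 string was in 5 and 1 (4.34% of all), the RUNX string in 10 and 2 (11.2%) and the STAT string in 4 and 0 (5.98%). These are matches of letters and were not tested.

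The 34 lists of T cell and general cell functions held 746 genes, of which 719 passed the filter on low counts over the 12 libraries, a filter that a gene can pass through a single group. Of these, 4 rose (S100a10, S100a11, Klrd1 and Itgav), against 0.558% of all genes tested, and 2 fell (Il6ra and Ifit3), against 0.112%. With so few calls among all genes, a list without a called member is not set apart from other genes. Most list members did not pass the test, and what follows gives their levels and counts beside those of all genes, whose median log2 fold change was 0. In the lists, 65 genes had all Teff2 libraries above all Teff1 libraries and 57 had all below, near the 8.39% and 6.19% of all genes tested.

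**Figure D4:**
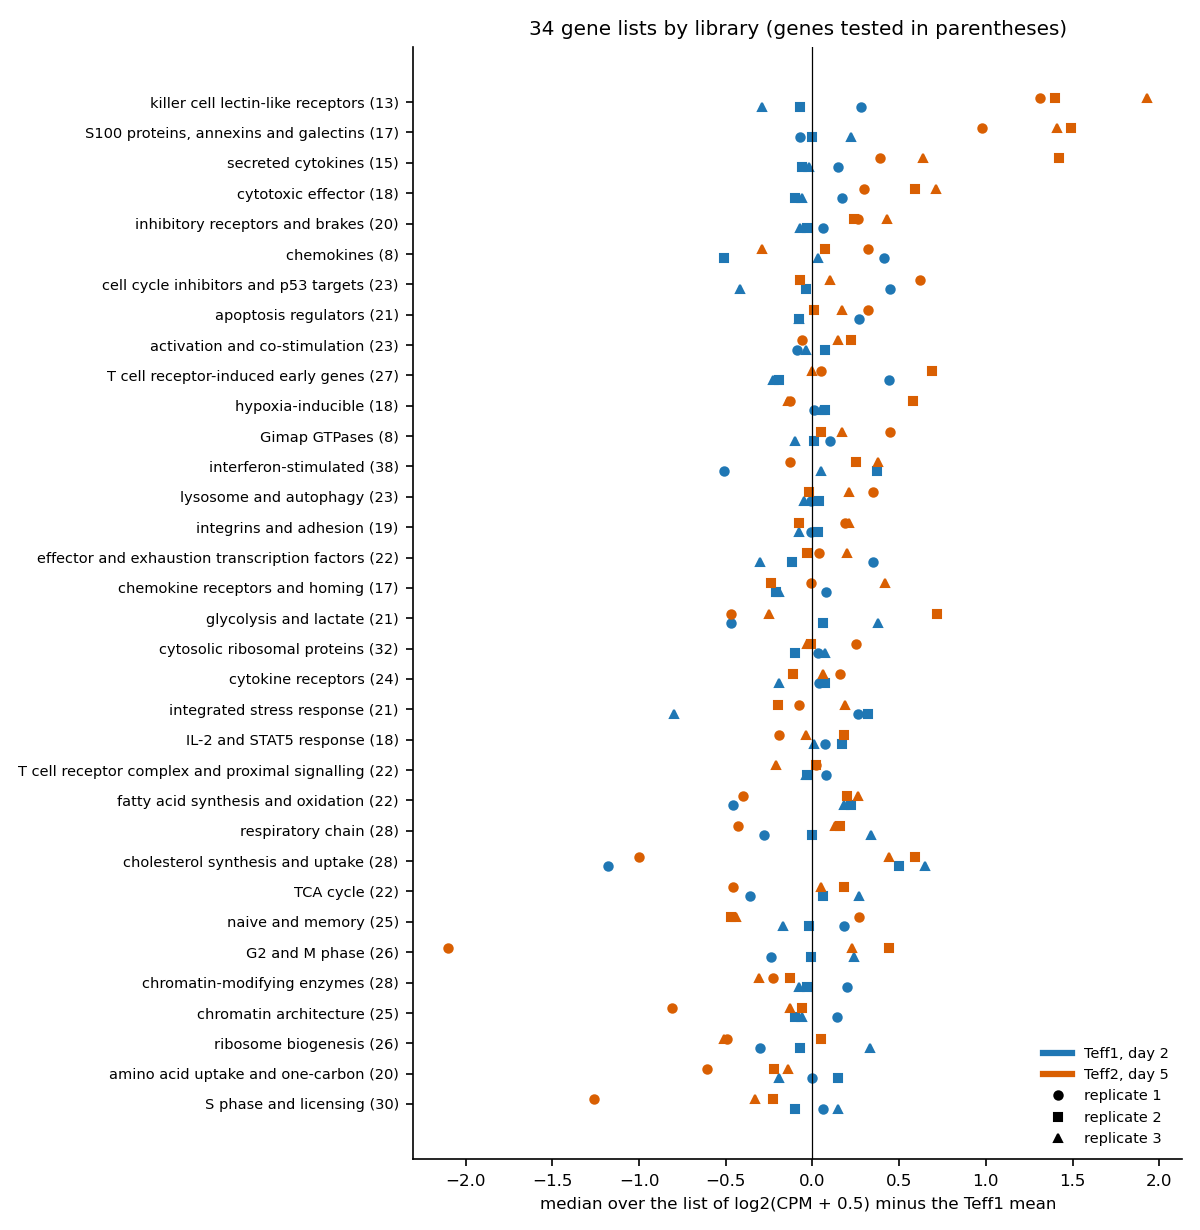
For each of 34 gene lists, the median over its genes tested of log2(CPM + 0.5) minus the mean of Teff1 is plotted for each of the 6 libraries (symbols mark the replicate). The lists of killer cell lectin-like receptors and of S100 proteins, annexins and galectins have all Teff2 libraries at 0.98 or more, and Teff2 replicate 1 lies at -2.10 for G2 and M phase genes.

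S100 proteins are small calcium sensors, annexins bind membranes when calcium rises, and galectins bind sugars on glycoproteins. S100a10 rose 3.38-fold, from 89.0, 100 and 150 CPM to 405, 310 and 433 CPM (log2 1.76, SE 0.22, edgeR adjusted p = 0.00422). S100a11 rose 3.73-fold, from 25.5, 21.6 and 35.0 CPM to 112, 87.4 and 107 CPM (log2 1.90, SE 0.19, adjusted p = 0.000866). Both were called in all 6 fits that left out a library. S100a10 pairs with Anxa2, and Anxa2 stood at 44.0, 66.2 and 72.4 CPM in Teff1 and at 154, 387 and 433 CPM in Teff2, with an adjusted p of 0.0512 that missed the threshold. Anxa5 stood at 37.6, 49.6 and 65.6 CPM and at 81.8, 88.8 and 131 CPM, Lgals1 at 110, 246 and 338 CPM and at 414, 749 and 968 CPM, and Lgals3 at 14.3, 2.33 and 1.88 CPM and at 60.5, 30.2 and 48.8 CPM. None of these 3 was called, though their libraries did not overlap. Of the 17 members tested, 13 had all Teff2 libraries above all Teff1 libraries, against 8.39% of all genes, and the median log2 fold change was 1.62. The filament protein gene Vim, also in the list, overlapped, with 250, 248 and 225 CPM in Teff1 and 125, 836 and 779 CPM in Teff2. The number of called members was 2, where 0.558% of all genes tested were called higher. It was 5 without replicate 1 of the activated groups, 8 with DESeq2 and 8 with a replicate block. Calls among all genes also rose in these fits, from 80 higher genes to 106, 372 and 248.

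Killer cell lectin-like receptors are surface receptors that T cells share with NK cells, and CD94 pairs with NKG2 chains to read nonclassical MHC class I. Klrd1, which encodes CD94, rose 3.73-fold, from 86.5, 48.2 and 26.7 CPM to 210, 170 and 223 CPM (log2 1.90, SE 0.34, edgeR adjusted p = 0.0297). Its Teff1 libraries were spread widely (53.8 ± 30.3 CPM, SD, n = 3), and the call was lost without Teff1 replicate 2, Teff1 replicate 3 or Teff2 replicate 3 (adjusted p up to 0.149). Klrd1 was also not called in the fit of the 6 libraries alone or in the fit without Tex. Its partner gene Klrc1, which encodes NKG2A, stood at 41.2, 24.1 and 21.7 CPM in Teff1 and at 131, 225 and 404 CPM in Teff2 (adjusted p = 0.0732). Klrc2 stood at 5.14, 4.71 and 3.33 CPM and at 18.9, 23.0 and 53.1 CPM, and Klrk1, which encodes the activating receptor NKG2D, at 84.4, 185 and 107 CPM and at 168, 313 and 454 CPM. Neither was called, and Klrk1 overlapped between the days. Of 13 members tested, 7 had all Teff2 libraries above all Teff1 libraries (8.39% of all genes did) and none had all below, with a median log2 fold change of 1.90. Counts within the Klrc family are uncertain, since its members are near copies. The NK cell markers, given above, were low and overlapped between the days.

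Of the genes of the cytotoxic granule and its control, none was called and 7 of 18 tested had all Teff2 libraries above all Teff1 libraries (8.39% of all genes tested), with none below. Prf1, which encodes the pore-forming perforin, stood at 20.9, 59.2 and 107 CPM in Teff1 and at 35.7, 575 and 322 CPM in Teff2 (log2 2.32, SE 0.84, adjusted p = 0.272). Teff2 replicate 1 was the exception, and without replicate 1 of the activated groups Prf1 was called (adjusted p = 0.0264). Gzmb, the granzyme that starts apoptosis in the target cell, stood at 1362, 4164 and 4568 CPM in Teff1 and at 1907, 8905 and 7202 CPM in Teff2, with replicate 1 lowest on both days and overlap between them. Fasl, the ligand of the death receptor Fas, stood at 9.04, 8.17 and 5.34 CPM and at 13.8, 48.3 and 49.3 CPM. Nkg7, a granule membrane protein, stood at 243, 247 and 307 CPM and at 309, 534 and 654 CPM. Serpinb9, which protects the killer from its own granzyme B, stood at 80.0, 79.3 and 104 CPM and at 126, 172 and 283 CPM. For these 3 the days did not overlap. Gzmc had 0.285 to 0.476 CPM in Teff1 and 1.42 to 14.6 CPM in Teff2, and like Serpinb9b belongs to a family of near copies whose counts are uncertain. The list had 4 members called higher with DESeq2, 5 with a replicate block, and 2 without replicate 1 of the activated groups. Over all genes tested these fits called 372, 248 and 106 genes higher, against 80 in the main fit.

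**Figure D5:**
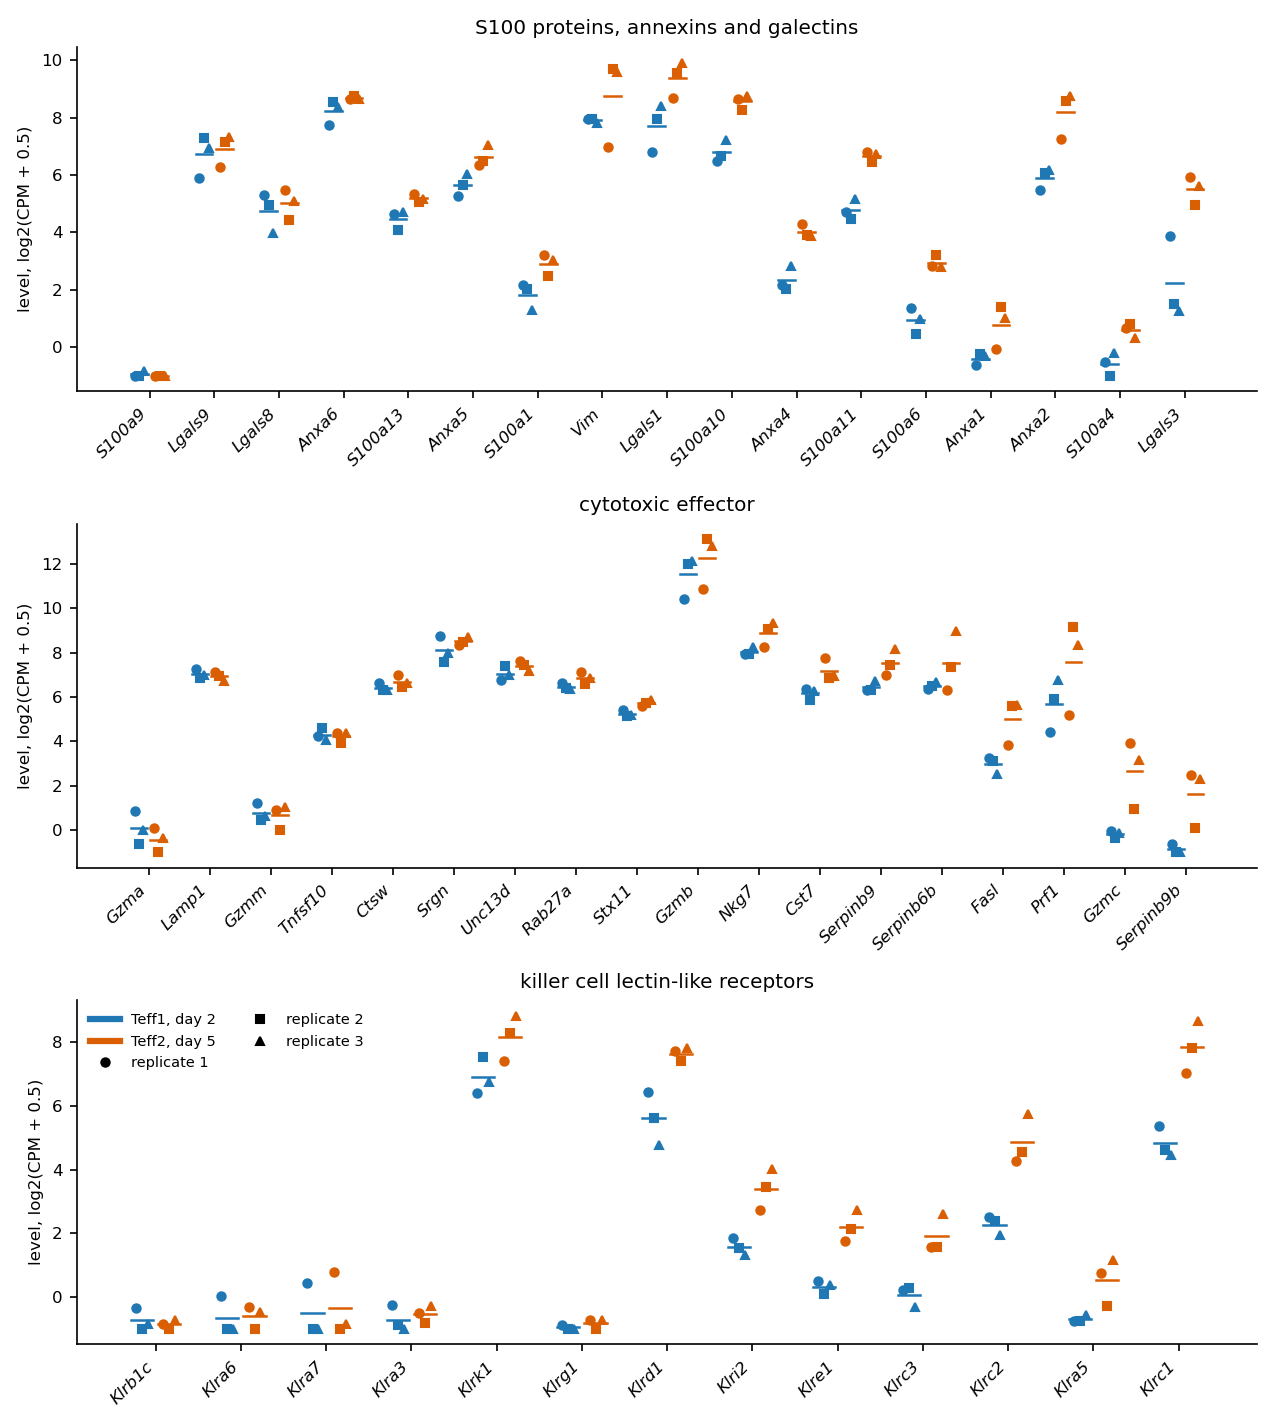
Levels on the log2(CPM + 0.5) scale in each Teff1 (blue) and Teff2 (orange) library for the members tested of 3 lists, in the order of their log2 fold change (symbols mark the replicate, bars the mean of 3). Teff2 replicate 1 lies below the other day 5 libraries for Prf1, Gzmb, Fasl and Vim.

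The secreted cytokines also held no called gene. Spp1, which encodes osteopontin, stood at 15.7, 21.2 and 50.3 CPM in Teff1 and at 63.6, 354 and 259 CPM in Teff2 (adjusted p = 0.0586). Tnf stood at 38.1, 54.5 and 43.9 CPM and at 64.2, 130 and 70.4 CPM, and Tnfsf11, which encodes RANKL, at 21.7, 11.5 and 17.5 CPM and at 102, 47.7 and 55.0 CPM. Csf2, which encodes GM-CSF, stood at 0.856, 1.62 and 0.364 CPM and at 7.04, 8.71 and 2.63 CPM. In each of these 4 the day 5 libraries were the higher without overlap, and 6 of 15 members tested were so placed in all, against 8.39% of all genes. Ifng, the interferon made by effector cells, overlapped, with 117, 180 and 311 CPM in Teff1 and 61.1, 1754 and 820 CPM in Teff2. Il2 was the member with all Teff2 libraries below Teff1, at 2.05, 0.428 and 1.58 CPM against 0.357, 0.0645 and 0.0538 CPM (adjusted p = 0.252).

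Integrins and other adhesion molecules had 1 called member of 19, where 0.558% of all genes tested were called higher. Itgav, the alpha V integrin chain that joins several beta chains to bind matrix proteins and latent TGF-beta, rose 2.29-fold, from 84.1, 65.3 and 51.2 CPM to 134, 150 and 175 CPM (log2 1.2, SE 0.22, edgeR adjusted p = 0.0324). The call was lost in 4 of the 6 fits that left out a library (adjusted p up to 0.152, without Teff1 replicate 2). Itgav was also not called in the fit of the 6 libraries alone. Cd44, the hyaluronan receptor used as a marker of activated cells, stood at 106, 73.6 and 84.3 CPM in Teff1 and at 257, 240 and 239 CPM in Teff2, apart but with an adjusted p of 0.23. Itga6, the alpha 6 chain, stood at 66.8, 109 and 69.8 CPM and at 34.5, 50.3 and 53.5 CPM (adjusted p = 0.168). The list thus held members on both sides. All day 5 libraries were above in 3 of the 19 and below in 1, against 8.39% and 6.19% of all genes tested.

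Of 25 naive and memory genes, Il6ra fell and no other was called, where 0.112% of all genes tested were called lower. All day 5 libraries were above in 2 of the 25 and below in 4, against 8.39% and 6.19% of all genes tested. Il7r, the receptor of the survival cytokine IL-7, stood at 33.4, 61.7 and 23.8 CPM in Teff1 and at 100, 153 and 248 CPM in Teff2 (log2 2.08, SE 0.44, adjusted p = 0.058). Klf2, a transcription factor that keeps T cells quiescent and recirculating, stood at 12.2, 11.9 and 9.09 CPM and at 2.55, 2.64 and 4.46 CPM (log2 -1.78, SE 0.52, adjusted p = 0.162). These 2 lay on opposite sides, each without overlap. Txk, a Tec family kinase, stood at 39.3, 34.1 and 26.8 CPM and at 16.5, 16.9 and 12.5 CPM (adjusted p = 0.0535). The homing receptor gene Ccr7 overlapped, with 328 to 796 CPM in Teff1 and 355 to 864 CPM in Teff2. Tcf7, the factor TCF-1 of stem-like T cells, had 303, 252 and 232 CPM in Teff1 and 393, 140 and 136 CPM in Teff2, with Teff2 replicate 1 above and its other libraries below all of Teff1. S1pr1, the exit receptor of lymphoid organs, had 4.71 to 16.4 and 5.42 to 15.8 CPM.

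Inhibitory receptors held no called gene among 20 tested. Btla was the steadiest, with 160, 162 and 164 CPM in Teff1 and 85.8, 89.1 and 98.1 CPM in Teff2 (log2 -0.83, SE 0.22, adjusted p = 0.122). Cd160 stood at 61.6, 47.0 and 85.4 CPM and at 24.0, 45.8 and 40.4 CPM. Both had all day 5 libraries below, unlike Pdcd1, whose levels overlapped (log2 0.89, SE 0.33, adjusted p = 0.279). On the other side, Cblb, a ubiquitin ligase that dampens receptor signalling, stood at 428, 377 and 272 CPM in Teff1 and at 621, 457 and 502 CPM in Teff2. Cd244, a receptor of the SLAM family, was near the floor of detection at 0.0476, 0 and 0 CPM against 0.459, 0.258 and 0.376 CPM, also apart. The list had 15 of 20 positive log2 fold changes and a median of 0.50, with 2 members apart in each direction. Of all genes tested, 8.39% were apart above and 6.19% apart below, so these counts were near those of all genes. Lag3 had 166 to 247 CPM in Teff1 and 143 to 245 CPM in Teff2, Tigit 47.0 to 80.4 and 57.5 to 149 CPM, and Ctla4 251 to 344 and 111 to 485 CPM, each with overlap.

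Among the transcription factors of effector and exhausted cells none of 22 was called. All day 5 libraries were above in 3 of them, against 8.39% of all genes tested, and below in 3, against 6.19%. Runx1 and Ikzf3 had all day 5 libraries below (15.7, 12.3 and 9.58 against 2.96, 6.97 and 5.16 CPM, and 275, 168 and 154 against 121, 87.7 and 104 CPM), and Zeb2 and Bhlhe40 all above (15.4, 12.4 and 13.5 against 19.6, 31.7 and 38.1 CPM, and 351, 115 and 93.0 against 428, 364 and 446 CPM). Their adjusted p-values were 0.0917, 0.0971, 0.394 and 0.622. Runx2, with the largest log2 fold change of the list (1.98), was also above without overlap, and Ikzf1 was also below. Tbx21, which encodes T-bet, had 81.0 to 105 CPM in Teff1 and 68.7 to 146 CPM in Teff2. Eomes had 10.1 to 41.3 and 20.3 to 33.7 CPM, Prdm1 0.618 to 2.14 and 0.408 to 3.61 CPM, and Tox 17.1 to 32.1 and 11.3 to 23.9 CPM. These 4 did not separate the days. Nor did the early activation genes Nr4a1 (357 to 789 and 315 to 637 CPM), Myc (404 to 506 and 277 to 470 CPM) and Cd69 (147 to 176 and 148 to 250 CPM), or the IL-2 receptor chain gene Il2ra (692 to 956 and 794 to 1221 CPM).

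Genes of DNA replication were lower in level without any call. All 30 S phase and licensing genes had negative log2 fold changes (median -0.51), and 14 had all Teff2 libraries below all Teff1 libraries, where 6.19% of all genes tested did. The signs were the same under the other 2 scalings tried. Mcm5, a subunit of the replicative helicase, had 535, 395 and 571 CPM in Teff1 and 209, 374 and 315 CPM in Teff2. Cdt1, which loads that helicase, had 183, 189 and 154 CPM and 46.4, 120 and 92.4 CPM (adjusted p = 0.278). Teff2 replicate 1 was lowest in both. Against the Teff1 mean, the median of the list stood at -1.26, -0.23 and -0.33 in Teff2 replicates 1 to 3. Without Teff2 replicate 1, 27 of the 30 were negative and the median log2 fold change was -0.30. The G2 and M phase list showed the same library more strongly, with medians of -2.10, 0.44 and 0.23 in Teff2, and its 26 genes had no member apart in either direction. Mki67, a marker of cycling cells, had 239, 896 and 823 CPM in Teff2 and 782 to 989 CPM in Teff1. Cdkn1a, the inhibitor p21, had 553, 162 and 169 CPM in Teff2 and 133, 44.8 and 16.3 CPM in Teff1, with replicate 1 highest on both days.

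The list of ribosome biogenesis had negative log2 fold changes in all 26 genes (median -0.32), 3 of them with all day 5 libraries below (6.19% of all genes tested), and none was called. Without Teff1 replicate 3, 23 of the 26 were negative and the median was -0.14. Of 20 genes of amino acid uptake and one-carbon metabolism, 19 were negative (median -0.37), and 2 had all day 5 libraries below, against the same 6.19%. Cytosolic ribosomal proteins (median 0.08), the respiratory chain (-0.05), the TCA cycle (-0.11), glycolysis (0.09) and fatty acid metabolism (-0.04) held at most 1 member each without overlap. The cholesterol list had replicate 1 of both days low (-1.18 in Teff1 and -1.0 in Teff2, against 0.44 to 0.65 in the other 4 libraries) and a median of -0.09. In this list the replicates were further apart than the days.

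Since the series paired RNA-seq with maps of chromosome contacts, genes of chromatin structure were read as a list. None of 25 was called, and 7 had all day 5 libraries below, where 6.19% of all genes tested did. Among them were Ctcf, the insulator protein (256, 205 and 211 against 129, 184 and 174 CPM), and the cohesin subunit genes Smc1a (315, 314 and 383 against 165, 292 and 297 CPM) and Smc3 (208, 180 and 198 against 111, 157 and 159 CPM). Teff2 replicate 1 was the lowest in all 3, and the median of the list was -0.31, or -0.03 without replicate 1 of the activated groups. Lmna, which encodes lamin A and C, lay on the other side at 1.14, 0.713 and 0.849 against 1.84, 3.68 and 4.73 CPM. Of 28 chromatin-modifying enzymes 5 had all day 5 libraries below (6.19% of all genes tested did), such as the maintenance methyltransferase gene Dnmt1 with 694, 740 and 709 against 338, 573 and 479 CPM (adjusted p = 0.261).

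Of 38 interferon-stimulated genes only Ifit3 was called, where 0.112% of all genes tested were called lower. Ifit3 fell by 2.22 on the log2 scale, from 3.00, 5.09 and 5.27 CPM to 0.765, 1.29 and 0.806 CPM (SE 0.38, edgeR adjusted p = 0.0254). Ifit proteins bind foreign RNA and block its translation. The call was lost in 4 of the 6 fits that left out a library (adjusted p up to 0.14, without Teff2 replicate 3). Ifit1 (3.76, 9.32 and 8.43 against 3.32, 3.48 and 2.69 CPM) and Ifit2 (31.0, 31.8 and 29.0 against 13.9, 21.5 and 24.8 CPM) also lay below without overlap and were not called. These 3 Ifit genes were the only members of the 38 with all day 5 libraries below, near the 6.19% of all genes tested. No member had all day 5 libraries above, against 8.39% of all genes. The list median was 0.20, on the other side from the 3 Ifit genes.

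The remaining lists had no called member other than Il6ra, which also belongs to the cytokine receptors (median 0.06 over 24 genes). Ccr4, a chemokine receptor, stood at 20.5, 22.8 and 16.3 CPM in Teff1 and at 7.30, 7.16 and 9.68 CPM in Teff2 (adjusted p = 0.0542), and Ccr9 at 4.00, 0.665 and 1.21 CPM and at 0.306, 0 and 0.484 CPM. Of the apoptosis regulators, Pmaip1, which encodes Noxa, had 23.8, 12.9 and 10.9 CPM in Teff1 and 93.5, 25.0 and 37.7 CPM in Teff2. All 3 separated the days without passing the test.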

How the data were processed

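RNA-seq counts were analysed in 6 libraries (Teff1 and Teff2), fitted with the other 6. The authors deposited whole-number counts per gene for 34573 gene symbols, and per the submitters' processing notes HISAT2, HTSeq and DESeq2 were used with the mm10 build. Versions, counting settings and strand are not given in the sources used here, so near copies and antisense partners cannot be told apart. The second table the authors deposited holds values on a log2 scale for 21574 genes, whose transformation is not stated, and served as an alternative. The 4 Hi-C samples were not analysed here.

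The test was edgeR's quasi-likelihood test (version 4.0.16, R 4.3.3), run on the counts with TMM factors, filterByExpr (14332 genes) and group as the term, on all 12 libraries, with Benjamini-Hochberg adjustment over all genes. The script was tested on simulated counts. Levels of tested genes and non-overlap use CPM on TMM-scaled library sizes, while marker sums, floors and bounds use plain totals. Symbols were matched to the RefSeq annotation of GRCm38.p6 (25335 current and 2329 older symbols), which gave coordinates and the sequences. Intervals and floors cover counting error only.

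The members of the gene lists, the tests and the alternatives were chosen with earlier results of these data known. Named genes are the 8 largest rises and 8 largest falls of at least 10 CPM without overlap and without predicted genes, up to 3 called members of each list (and 1 in the other direction), 27 fixed genes, and the 2 most abundant markers of each other cell type, and others are said to be chosen after their values were seen. A few genes under this rule are not reported here. List members given for their levels were also chosen so. Alternatives were RLE and upper-quartile scaling, DESeq2 1.42.0, no filter, a filter at a mean of 5 CPM, the 6 libraries with and without a replicate block, each library left out, replicate 1 of Teff1, Teff2 and Tex left out, and limma 3.58.1 on the deposited log2 values. A fit of 9 libraries without Tex was added after seeing the data.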

Additional observations from a re-analysis of the deposited data

How the results depend on the processing

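The number of calls changed when single libraries were left out and with the tool. None of the called genes named in the text changed sign under the alternatives run. Of the 96 calls, 12 higher and 2 lower genes were called in every fit.

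Higher and lower calls numbered 372 and 127 with DESeq2, 117 and 23 without the filter, 36 and 3 in the 6 libraries alone, and 106 and 35 without replicate 1 of the activated groups. Without Tex they were 46 and 10. Leaving out a library gave 17 to 88 higher and 2 to 18 lower calls. With a change of at least 1 on the log2 scale they were 317 and 50 with DESeq2, 116 and 17 without the filter, 36 and 3 in the 6 libraries, 46 higher without Tex, 30 lower without replicate 1 and 7 lower with limma, and 16 to 86 and 2 to 15 with a library left out. With the replicate block the counts were 248 and 29, or 245 and 28 at that size. Same-numbered libraries of Teff1 and Teff2 correlated at 0.48, 0.24 and 0.04 in their deviations, and those of different numbers at -0.5 to 0.39. No label pairs the libraries by number, so the numbers were not taken to pair them in the main fit. Whether they do was not tested. Same-numbered Tex and Teff2 libraries correlated at 0.76, 0.65 and 0.59 (-0.58 to 0.06 for different numbers), and the fit of 12 libraries treats them as independent.

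Genes that were not called and changed sign had these log2 fold changes. With RLE, they were Ctla4 -0.02 and Cd79b -0.00075. With DESeq2, they were Ctla4 -0.02 and Cd79b -0.0024. Without the filter, they were Ctla4 -0.05 and Cd79b -0.04. Without replicate 1 of the activated groups, they were Eomes -0.24, Nr4a1 0.41, Mki67 0.05, Lag3 0.07, Cd79b -0.15, Cd74 -0.46 and Pecam1 0.16. With the replicate block, they were Ctla4 -0.23. With limma, they were Ctla4 -0.17, Cd79b -0.01 and Hbb-b1 -0.10. With upper-quartile scaling, they were Pecam1 0.02. With the 5 CPM filter, they were Pecam1 0.04. In the 6 libraries alone, they were Pecam1 0.01. Without Tex, they were Pecam1 0.01. With a library left out, the ranges were Havcr2 -0.08 to 0.60, Tcf7 -0.93 to 0.02, S1pr1 -0.40 to 0.89, Tbx21 -0.25 to 0.34, Eomes -0.19 to 0.77, Prdm1 -0.75 to 0.77, Nr4a1 -0.54 to 0.19 and Myc -0.34 to 0.01. The others were Lag3 -0.32 to 0.06, Ctla4 -0.64 to 0.38, Cd79b -0.12 to 0.11, Cd74 -0.61 to 0.99, Hbb-b1 -7.25 to 2.84, Alas2 -0.77 to 0.11, Itga2b -0.25 to 0.95 and Pecam1 -0.24 to 0.24. The cause was not tested in any of these.

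Members called per list also moved, and are to be read beside the calls among all genes in the same fits, given above. For naive and memory genes, 0 were called higher, but 2 with DESeq2, 1 without the filter, 2 with the replicate block, 1 without replicate 1 of the activated groups and 0 to 1 with a library left out. For naive and memory genes, 1 was called lower, but 2 with RLE, 4 with DESeq2, 2 without the filter, 3 with the replicate block, 2 without replicate 1 of the activated groups and 3 without Tex. For cytotoxic genes, 0 were called higher, but 4 with DESeq2, 2 without the filter, 5 with the replicate block, 2 without replicate 1 of the activated groups, 1 without Tex and 0 to 1 with a library left out. For lectin-like receptors, 1 was called higher, but 5 with DESeq2, 2 without the filter, 2 in the 6 libraries alone, 6 with the replicate block, 2 with limma, 0 without Tex and 0 to 2 with a library left out. The 2 called in the 6 libraries alone did not include Klrd1. For cytokines, 0 were called higher, but 4 with DESeq2, 2 without the filter, 3 with the replicate block, 1 without replicate 1 of the activated groups and 0 to 1 with a library left out. For integrins and adhesion, 1 was called higher, but 2 with the replicate block and 0 to 1 with a library left out. For interferon-stimulated genes, 0 were called higher, but 2 with the replicate block and 2 without replicate 1 of the activated groups. For interferon-stimulated genes, 1 was called lower, but 0 in the 6 libraries alone, 3 without replicate 1 of the activated groups and 0 to 1 with a library left out. For S100, annexin and galectin genes, 2 were called higher, but 8 with DESeq2, 5 without the filter, 8 with the replicate block and 5 without replicate 1 of the activated groups.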
